A study of Mus musculus with 6 samples.

Results

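The genes described here encode the machinery of mitosis, from the kinase that starts it to the proteins that divide the cell. They were taken by name, as a list of 57 symbols, and the rule used no measured value. Of the 57, 55 were found by their Ensembl identifiers among the 14548 genes of the files, and *Top2a* and *Foxm1* were not analysed here. All 55 reached 1 FPKM (fragments per kilobase of transcript, scaled to the size of the library) in 1 library or more, the limit set for testing, and all 55 were above 0 in all 6 libraries.

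The RNA came from C2C12 cells, a mouse myoblast line that divides in serum-rich medium and can fuse into myotubes when serum is withdrawn. There were 3 WT libraries and 3 MSTN-KO libraries. The MSTN-KO cells were the line C11, made by electroporating a CRISPR plasmid that cuts exon 3 of *Mstn*, the gene of myostatin, a secreted factor that limits muscle growth. All 3 MSTN-KO libraries came from this 1 line, so an effect of the deletion and a property of the line cannot be told apart. Both groups were grown in DMEM with serum, and no time in culture was given. *Mstn* itself had hardly any RNA in either group. Replicates 1, 2 and 3 gave 0.0211, 0 and 0.0399 FPKM for WT, and for MSTN-KO they gave 0.0269, 0.0586 and 0.0390 FPKM, so its RNA was no check of the labels. The sources used here do not say that replicates of a group were separate cultures, so the p-values measure the spread between these libraries, which may be technical.

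A dividing cell copies its chromosomes in S phase and separates them in M phase. CDK1 with cyclin B starts mitosis, the kinetochore ties each chromosome to microtubules of the spindle, the spindle checkpoint holds the cell until every kinetochore is attached, and the anaphase-promoting complex then marks securin and cyclin B for destruction so that the chromatids part. The RNAs of these proteins are made mainly in G2 and M phase and are repressed when cells leave the cycle. Myoblasts leave it for good when they differentiate into muscle, which makes this gene set a common measure of how much a myoblast culture is dividing. In bulk RNA, fewer dividing cells and less RNA in each dividing cell cannot be told apart.

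Many mitotic promoters carry a short element called the CHR (cell cycle genes homology region), with the letters TTTGAA or TTCGAA, close to the start of transcription. It is bound by the MuvB complex, which represses the gene in resting cells as part of DREAM and activates it in G2 together with B-MYB and FOXM1. RefSeq promoter windows of GRCm38.p6, each from 250 bases before to 50 bases after the annotated start, were at hand for 46 of the 55 genes (51 windows). For 36 of the 51 windows, the first bases after the start were found near the start of a transcript in the GENCODE annotation. The windows below show 1 gene from each role group with a CHR within 50 bases of the start. Capitals mark the CHR, which reads TTCAAA where TTTGAA lies on the opposite strand.
Cdk1, chr10:69352910-69352939, minus strand: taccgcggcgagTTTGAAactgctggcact
Plk1, chr7:122159453-122159482, plus strand: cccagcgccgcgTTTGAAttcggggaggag
Bub1, chr2:127831828-127831857, minus strand: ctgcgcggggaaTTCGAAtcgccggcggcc
Cdc20, chr4:118437344-118437373, minus strand: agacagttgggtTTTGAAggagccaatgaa
Cenpa, chr5:30666890-30666919, plus strand: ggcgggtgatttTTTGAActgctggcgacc
Kif11, chr19:37376351-37376380, plus strand: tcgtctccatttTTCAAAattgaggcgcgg
Racgap1, chr15:99651634-99651663, minus strand: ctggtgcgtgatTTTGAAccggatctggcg
Smc2, chr4:52439235-52439264, plus strand: ctcgcgccgaaaTTCAAAggaacagttccg

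Of the 46 mitotic genes with a window, 33 (71.7%) held a CHR on either strand, against 21.7% of all 27025 genes with a window. Within 50 bases of the start the element was found in 29 genes (63.0%), against 6.1% of all genes. It lay 15 bases before the start in *Cdk1*, 18 before it in *Cdc20* and 19 before it in *Kif11*. In *Racgap1*, *Bub1*, *Cenpa*, *Smc2* and *Plk1* it lay 5, 14, 16, 26 and 30 bases after the start. Over all near matches, 10 lay before the start and 23 after it. The CCAAT box, the letters CCAAT on either strand, where the factor NF-Y binds, was found in 32 genes (69.6%), against 41.1% of all genes, and 24 of the 29 genes with a near CHR also had a CCAAT box. The forkhead letters TAAACA, on either strand, were in 7 windows of the 46 genes (15.2%), near the 15.1% of all genes. E2F letters (TTTCGCGC, TTTCCCGC, TTTGGCGC or TTTGCCGC, on either strand) were in 6 (13%), against 2.6% of all genes. None of these strings contains another, and TTCGAA reads the same on both strands. These matches describe the letters in the windows and were not tested.

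**Figure D1:**
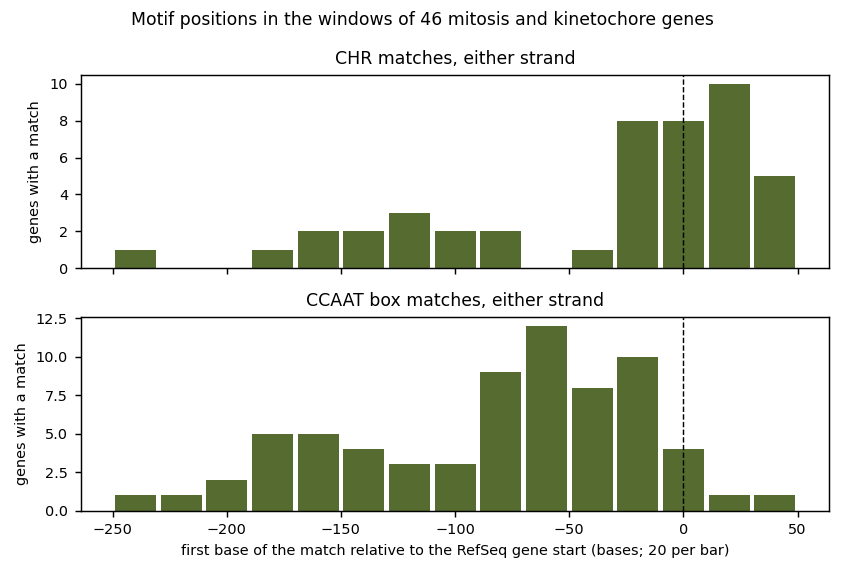
Positions of CHR and CCAAT box matches in the promoter windows of 46 mitosis and kinetochore genes. The horizontal axis gives the first base of a match relative to the annotated gene start in bases, and bar height counts the genes with a match in each 20-base bin. CHR matches gather around the start, and CCAAT matches gather before it.

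The deposited FPKM values were compared on the scale log2(FPKM + 1) by limma across the 10837 genes that reached 1 FPKM in any library, with Benjamini-Hochberg adjustment over all of them. Fold changes on this scale are MSTN-KO minus WT and are compressed for genes of low FPKM. The WT libraries summed to 723705 to 764524 FPKM, and the MSTN-KO libraries had larger sums of 856314 to 999579 FPKM. The files state no read depth. A rough estimate took the most common product of FPKM and transcript length among low values as 1 fragment. The product was sought within a fixed range, which bounds the answer. It gave about 16100000 to 21100000 fragments per library, if the longest GENCODE transcript is the length the authors divided by, which is not stated. On that estimate the lowest-covered mitotic gene, *Cenpk*, rested on 17.1 to 96.8 fragments per library.

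The mitotic genes were mostly expressed above the typical gene. Their mean FPKM over all libraries ran from 1.09 (*Knl1*) to 342 (*Ube2c*), with a median of 26.6 against 11.8 for all tested genes, and 36 of the 55 lay above that median. Summed FPKM of the 55 genes was 2322, 2391 and 2792 for WT replicates 1, 2 and 3, and 2560, 2603 and 3051 for MSTN-KO. As a share of the library this was 0.307%, 0.330% and 0.365% in WT and 0.289%, 0.304% and 0.305% in MSTN-KO. The summed values of both groups overlapped. The 3 shares of MSTN-KO lay below those of WT, by little between the nearest libraries, and a share also depends on the total FPKM, which was larger in every MSTN-KO library.

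Between MSTN-KO and WT, 4 of the 55 genes (7.27%) passed an adjusted p of 0.05, against 17.7% of all tested genes. Of these, 2 were upregulated, against 8.78% of all genes, and 2 were downregulated, against 8.96%. None of the 55 met the DEG criteria of an unadjusted p under 0.05 with a log2 fold change above 1 or below -1 (0 genes), which 3.51% of all tested genes met. An unadjusted limma p under 0.05 was reached by 11 of the 55, 7 higher and 4 lower. The share of all tested genes at this limit was not counted. It cannot be below the 17.7% that passed the adjusted p. So these 11, and such counts in the role groups below, are not read as an excess. In 11 genes (20%) the 3 MSTN-KO values did not overlap the 3 WT values, 8 higher and 3 lower, against 37.4% of all tested genes. Mean values on the log2 scale, on which means are counted as higher or lower throughout, were higher in MSTN-KO for 26 genes and lower for 29, and the median log2 fold change was -0.07, with -0.0008 for all genes. The median absolute log2 fold change was 0.236 against 0.233 for all genes, and after a correction of each library for transcript length and GC content it was 0.156 against 0.200.

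These are limits on size and not evidence of equality. The 95% intervals of the log2 fold change reached 0.337 to either side at the median and 0.676 at the widest, and 53 of the 55 lay wholly between -1 and 1. The exceptions were *Smc2*, with a lower bound of -1.03, and *Cenpm*, with an upper bound of 1.01. Between -0.5 and 0.5 lay 21 of the intervals, and 44 held 0.

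**Figure D2:**
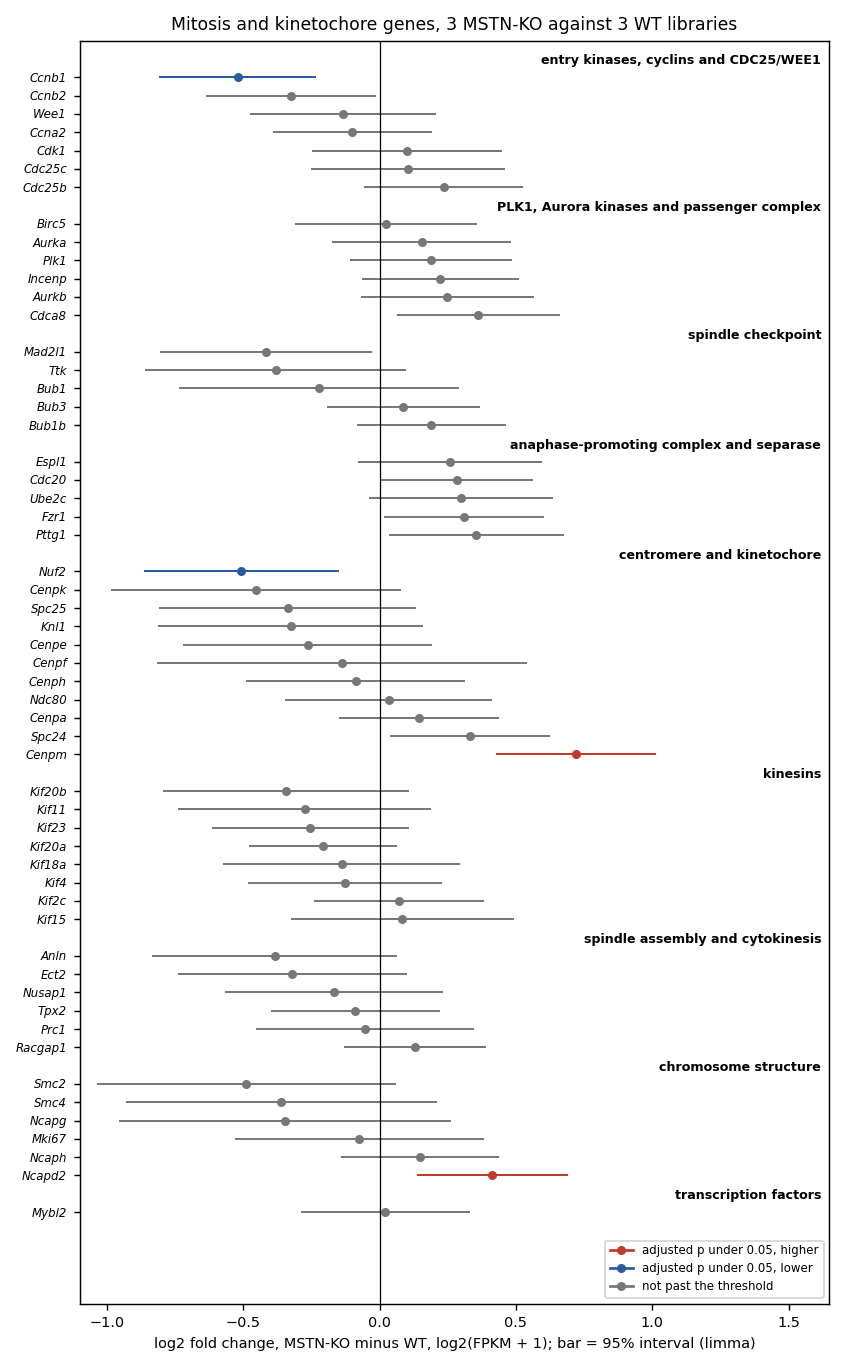
Log2 fold change of the 55 mitosis and kinetochore genes, MSTN-KO minus WT on the scale log2(FPKM + 1), in role groups. Points are limma estimates from 3 against 3 libraries, bars are 95% intervals and colours mark genes past an adjusted p of 0.05. *Ccnb1* and *Nuf2* were lower, *Cenpm* and *Ncapd2* were higher, and 51 genes did not pass.

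Genes of mitotic entry come first in order of action. Differences below are log2 fold changes of MSTN-KO against WT, and a range beside one in parentheses is its 95% interval from limma. Medians called corrected are those after the correction for transcript length and GC content. *Ccnb1* encodes cyclin B1, the main partner of CDK1 at entry into mitosis (ENSMUSG00000041431, chromosome 13 from 100778650 to 100786570 of GRCm38). WT replicates 1, 2 and 3 had 56.9, 58.4 and 73.4 FPKM, and MSTN-KO replicates 1, 2 and 3 had 43.9, 44.7 and 41.4 FPKM. The MSTN-KO values all lay under the WT values, and WT replicate 3 stood highest. The means were 62.9 ± 9.12 FPKM in WT and 43.3 ± 1.71 FPKM in MSTN-KO (SD, n = 3), and *Ccnb1* was downregulated by limma with a log2 fold change of -0.52 (SE 0.13, adjusted p = 0.0166). Without WT replicate 3 the adjusted p was 0.0654, without MSTN-KO replicate 1 it was 0.0521 and without MSTN-KO replicate 3 it was 0.0527. The annotation holds a processed pseudogene of *Ccnb1*, and how reads shared with it were counted is not given in the sources used here.

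Cyclin B2, from *Ccnb2*, the second mitotic B-type cyclin, had 47.7, 57.5 and 64.2 FPKM in WT and 42.4, 40.9 and 50.9 FPKM in MSTN-KO. Its MSTN-KO values overlapped WT through MSTN-KO replicate 3, and the log2 fold change of -0.32 (SE 0.14) did not pass (limma adjusted p = 0.135). *Ccnb2* also has an annotated pseudogene. The ratio of *Ccnb1* to *Ccnb2* within a library ran from 1.02 to 1.19 in WT and from 0.813 to 1.09 in MSTN-KO, a difference of -0.20 on the log2 scale (p = 0.3 by a two-sided exact permutation test, whose smallest possible p with 3 libraries per group is 0.1).

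*Cdk1*, the kinase itself, was among the most abundant of the set. It had 182, 212 and 259.9 FPKM in WT and 208, 212 and 282 FPKM in MSTN-KO. The groups overlapped widely, and the log2 fold change was 0.10 (95% interval -0.24 to 0.45). *Ccna2*, which encodes cyclin A2 of S and G2 phase, differed by -0.10 (-0.39 to 0.19). The phosphatases that switch CDK1 on differed by 0.24 for *Cdc25b* and 0.10 for *Cdc25c*, and the kinase that holds CDK1 off, *Wee1*, by -0.13. None of these 5 passed the test. Within the group of 7 entry genes, 3 had higher and 4 lower means in MSTN-KO, with a median log2 fold change of -0.10.

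PLK1 and the Aurora kinases drive spindle assembly, and the chromosomal passenger complex of Aurora B, INCENP, survivin and borealin corrects faulty attachments. All 6 genes had a higher mean in MSTN-KO, with a median log2 fold change of 0.21 (corrected, 0.12), and 0 of 6 passed limma's test (1 gene at an unadjusted p under 0.05). After quantile normalization or scaling to the percentile 75, 5 of 6 were higher, and with every library brought to a sum of 1000000 FPKM, a step that moved the median of all genes to -0.26, 1 of 6 was above 0 and 5 of 6 were above that median. *Cdca8*, which encodes borealin, had 59.6, 57.0 and 67.5 FPKM in WT and 73.2, 71.9 and 93.3 FPKM in MSTN-KO. Its groups did not overlap, and its log2 fold change was 0.36 (SE 0.14, limma adjusted p = 0.0849). *Incenp* also did not overlap, at 29.8, 31.3 and 34.7 FPKM in WT and 35.1, 34.9 and 42.5 FPKM in MSTN-KO (0.22, limma adjusted p = 0.257).

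The kinases of this group overlapped between the groups of libraries. *Plk1* had 79.7, 69.2 and 82.8 FPKM in WT and 79.6, 82.9 and 103 FPKM in MSTN-KO, where replicate 3 stood clear above all WT libraries (0.19, 95% interval -0.11 to 0.48). Aurora A, from *Aurka*, acts at the spindle poles and differed by 0.15 (-0.17 to 0.48). Aurora B, from *Aurkb*, acts at the centromere and differed by 0.25 (-0.07 to 0.56). The ratio of *Aurka* to *Aurkb* was 1.29 to 1.39 in WT and 1.22 to 1.30 in MSTN-KO (-0.10 on the log2 scale, two-sided exact permutation test, p = 0.2). Survivin, from *Birc5*, was at 171 ± 26.1 FPKM in WT and 175 ± 30.4 FPKM in MSTN-KO (SD, n = 3), a log2 fold change of 0.02.

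The 5 spindle checkpoint genes encode the proteins that delay anaphase. None passed limma's test (0 of 5, with 1 at an unadjusted p under 0.05), 2 had higher and 3 lower means, and the median log2 fold change was -0.22 (corrected, -0.08). *Mad2l1*, whose protein MAD2 binds and blocks CDC20, had 34.1, 38.5 and 49.4 FPKM in WT and 23.7, 37.8 and 29.8 FPKM in MSTN-KO. MSTN-KO replicate 2 lay among the WT values and the other two lay below them, and the log2 fold change of -0.42 did not pass (SE 0.18, limma adjusted p = 0.125). *Bub1b*, which encodes BUBR1, a subunit of the inhibitor of the anaphase-promoting complex, had 25.01, 24.6 and 28.8 FPKM in WT and 30.3, 30.1 and 29.4 FPKM in MSTN-KO, with no overlap (0.19, limma adjusted p = 0.308).

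The checkpoint kinases were expressed at lower levels. *Bub1* had 9.54, 9.20 and 11.6 FPKM in WT and 8.58, 13.2 and 5.30 FPKM in MSTN-KO. Its highest and its lowest value both came from MSTN-KO libraries, replicates 2 and 3, and its log2 fold change was -0.22 (-0.73 to 0.29). *Ttk*, the kinase MPS1 that starts checkpoint signalling, had 4.79, 5.77 and 6.78 FPKM in WT and 4.63, 5.87 and 2.57 FPKM in MSTN-KO (-0.38, -0.86 to 0.09). The BUB1 and BUBR1 partner *Bub3* differed by 0.09 (-0.19 to 0.37).

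The genes around the anaphase-promoting complex encode its activators CDC20 and FZR1 (CDH1), its ubiquitin-conjugating enzyme UBE2C, and its end point, securin (*Pttg1*) and separase (*Espl1*), the protease that opens the cohesin ring. All 5 had a higher mean in MSTN-KO, with a median log2 fold change of 0.30, and 0 of 5 passed limma's test (3 genes at an unadjusted p under 0.05). All 5 stayed higher after quantile normalization, percentile scaling and the correction for length and GC content, and 3 of 5 did after scaling to a sum of 1000000, where all 5 were above the median of all genes. *Cdc20* had 151, 136 and 150.2 FPKM in WT and 172, 159 and 203 FPKM in MSTN-KO, without overlap (0.28, SE 0.13, limma adjusted p = 0.145). *Fzr1*, which keeps the complex active into G1, had 63.2, 48.3 and 53.9 FPKM in WT and 66.9, 63.8 and 74.3 FPKM in MSTN-KO, also without overlap (0.31, limma adjusted p = 0.125).

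The ratio of *Cdc20* to *Fzr1* was 2.39 to 2.80 in WT and 2.496 to 2.73 in MSTN-KO, a log2 difference of -0.03 (two-sided exact permutation test, p = 0.8). *Ube2c*, the most abundant gene of the set, had 268, 296 and 353 FPKM in WT and 329.7, 346 and 458 FPKM in MSTN-KO, and its groups overlapped (0.30, limma adjusted p = 0.197). Its exons share 592 bases with *Tnnc2* on the opposite strand, a troponin gene at 58.4, 79.8 and 21.1 FPKM in WT and 2.98, 4.37 and 8.77 FPKM in MSTN-KO. The counting is not stated to use strand, so reads of the shared bases cannot be told apart. *Pttg1* was 0.36 (SE 0.15, limma adjusted p = 0.113) and *Espl1* was 0.26 (adjusted p = 0.263). The ratio of *Pttg1* to *Espl1* differed by 0.08 on the log2 scale (two-sided exact permutation test, p = 0.8).

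Centromere and kinetochore genes formed the largest group, 11 in all, with 1 upregulated and 1 downregulated (18.2%, near the 17.7% of all tested genes). Their median log2 fold change was -0.14. On this scale 4 were higher and 7 lower, and in the corrected values 5 were higher and 6 lower with a median of -0.05. *Cenpm* encodes a subunit of the constitutive centromere-associated network, the inner layer of the kinetochore that stays on centromeric chromatin (ENSMUSG00000068101, chromosome 15 from 82233779 to 82244748). It had 25.5, 23.6 and 23.7 FPKM in WT and 38.9, 36.5 and 47.4 FPKM in MSTN-KO. WT values were within 2 FPKM of each other, and the lowest MSTN-KO value was above all of them. *Cenpm* was upregulated with a log2 fold change of 0.72 (SE 0.13, limma adjusted p = 0.00294), from 24.3 ± 1.03 to 40.9 ± 5.72 FPKM (SD, n = 3). It passed under each alternative tried, with a log2 fold change between 0.45 and 0.80.

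*Nuf2* encodes 1 of the 4 subunits of the NDC80 complex, the arm of the outer kinetochore that grips the microtubule (ENSMUSG00000026683, chromosome 1 from 169497934 to 169531464). Its values were 17.0, 20.9 and 24.3 FPKM in WT and 15.8, 15.5 and 11.6 FPKM in MSTN-KO. The groups did not overlap, though WT replicate 1 and MSTN-KO replicate 1 lay close, and MSTN-KO replicate 3 was lowest. *Nuf2* was downregulated with a log2 fold change of -0.51 (SE 0.16, limma adjusted p = 0.0485), just inside the threshold. It did not pass by limma with a pseudocount of 0.1 (adjusted p = 0.0506), with no filter on low values (0.102), without the variance trend (0.0611), with quantile normalization (0.0686) or with scaling to the percentile 75 (0.0568). It also did not pass without WT replicate 2, WT replicate 3, MSTN-KO replicate 1 or MSTN-KO replicate 3 (limma adjusted p = 0.0607 to 0.164).

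The other subunits of the same complex did not pass and differed in sign. *Ndc80* had 9.59, 10.7 and 13.1 FPKM in WT and 14.2, 11.3 and 9.06 FPKM in MSTN-KO (0.03, -0.34 to 0.41). *Spc24* had 48.2, 41.8 and 52.9 FPKM in WT and 59.2, 54.5 and 66.7 FPKM in MSTN-KO, higher without overlap (0.33, limma adjusted p = 0.105). *Spc25* had 18.4, 24.3 and 30.7 FPKM in WT and 13.7, 26.0 and 18.4 FPKM in MSTN-KO (-0.34, -0.81 to 0.13). SPC24 and SPC25 form a dimer in the complex, and the RNAs that encode them lay on opposite sides of 0. *Knl1*, the scaffold that recruits the BUB proteins to the outer kinetochore, was near the testing limit at 1.13, 1.06 and 1.71 FPKM in WT and 0.656, 1.57 and 0.422 FPKM in MSTN-KO (-0.33).

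Of the remaining kinetochore genes, *Cenpa*, the histone H3 variant that marks the centromere, had 112, 97.6 and 111 FPKM in WT and 113, 105 and 138 FPKM in MSTN-KO (0.14, -0.15 to 0.43). *Cenph* differed by -0.09 and *Cenpk* by -0.45, both inner kinetochore subunits like CENP-M. *Cenpk* was the least covered, at 1.39, 0.801 and 2.31 FPKM in WT and 0.512, 1.40 and 0.532 FPKM in MSTN-KO. *Cenpf*, a large protein of the outer kinetochore, spread most within a group, with 2.16, 3.00 and 2.23 FPKM in WT and 4.75, 1.94 and 0.814 FPKM in MSTN-KO, and had the widest interval of all (-0.14, -0.81 to 0.54). *Cenpe*, a kinetochore motor, differed by -0.26, and its ratio to *Cenpf* by -0.05 on the log2 scale (two-sided exact permutation test, p = 1.0).

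Promoter windows of the 4 genes past the threshold are shown for the 150 bases before the start, with CHR and CCAAT letters in capitals (CCAAT reads ATTGG on the opposite strand).
Ccnb1, chr13:100786487-100786636, minus strand: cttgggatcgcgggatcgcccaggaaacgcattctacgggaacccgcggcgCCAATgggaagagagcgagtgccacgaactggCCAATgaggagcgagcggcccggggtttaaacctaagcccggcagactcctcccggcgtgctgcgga
Nuf2, chr1:169531465-169531614, minus strand: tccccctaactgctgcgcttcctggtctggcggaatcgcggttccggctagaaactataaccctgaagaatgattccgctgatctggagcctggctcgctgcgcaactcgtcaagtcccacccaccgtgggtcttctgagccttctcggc
Cenpm, chr15:82244337-82244486, minus strand: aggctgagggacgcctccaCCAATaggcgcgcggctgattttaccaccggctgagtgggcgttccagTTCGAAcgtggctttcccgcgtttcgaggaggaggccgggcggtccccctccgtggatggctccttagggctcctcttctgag
Ncapd2, chr6:125191587-125191736, minus strand: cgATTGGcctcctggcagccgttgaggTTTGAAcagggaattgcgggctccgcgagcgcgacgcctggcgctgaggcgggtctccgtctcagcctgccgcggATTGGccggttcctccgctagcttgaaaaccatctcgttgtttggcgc
None of the 4 had a CHR within 50 bases of the start (0 genes). A CHR began 83 bases before the start in *Cenpm* and 123 before it in *Ncapd2*, and *Ccnb1* had CCAAT boxes at 99 and 67 bases before it. The 150 bases of *Nuf2* held neither set of letters. These positions count from the RefSeq start and would shift with another start. The whole *Cenpm* stretch lies inside the GENCODE bounds of its gene, and those of *Ccnb1* and *Ncapd2* lie partly inside. Of the 29 genes with a near CHR, 14 had higher and 15 lower means in MSTN-KO with a median log2 fold change of -0.05, and of the 17 genes with a window and no near CHR, 8 were higher and 9 lower with a median of -0.07. The 9 genes without a window had a median of -0.09.

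**Figure D3:**
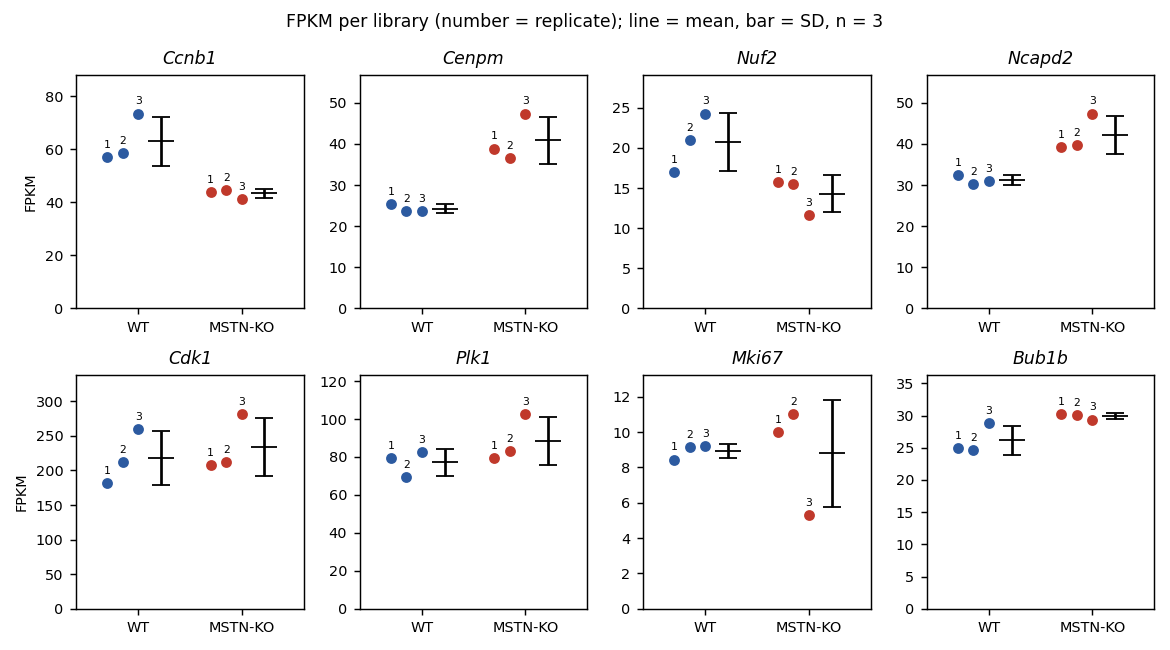
FPKM in each library for the 4 genes past an adjusted p of 0.05 (*Ccnb1*, *Cenpm*, *Nuf2* and *Ncapd2*) and for *Cdk1*, *Plk1*, *Mki67* and *Bub1b*. Points are libraries with their replicate number, lines are means and bars SD (n = 3). The groups do not overlap in the top row or for *Bub1b*, and in *Mki67* the MSTN-KO spread comes from replicate 3 at 5.33 FPKM.

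The mitotic kinesins move chromosomes and spindle poles along microtubules. Of 8, 2 had higher and 6 lower means in MSTN-KO, the median log2 fold change was -0.17 (corrected, -0.09, with 3 higher and 5 lower), and 0 of 8 passed limma's test at the adjusted or the unadjusted p. *Kif20a*, which carries the passenger complex to the midzone in anaphase, was the kinesin without overlap, at 37.4, 40.3 and 45.4 FPKM in WT and 34.5, 35.4 and 35.9 FPKM in MSTN-KO (-0.21, limma adjusted p = 0.263). Its exons share 1271 bases with *Cdc23* on the opposite strand. *Kif11*, the motor EG5 that pushes the spindle poles apart, had 9.12, 8.58 and 10.6 FPKM in WT and 9.14, 9.87 and 4.78 FPKM in MSTN-KO, with replicate 3 alone below WT (-0.27, -0.73 to 0.18).

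The remaining kinesins ranged from *Kif20b* at -0.34 to *Kif15* at 0.08. *Kif23*, the motor of the centralspindlin complex, was -0.25, *Kif18a*, which damps chromosome movements, was -0.14, *Kif4*, a chromosome-bound motor, was -0.13, and *Kif2c*, a depolymerase of microtubules, was 0.07. Intervals of all 6 held 0.

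Spindle assembly and cytokinesis genes were lower in mean for 5 of 6, with a median log2 fold change of -0.13 (corrected, -0.05, with 4 of 6 lower) and 0 of 6 past limma's adjusted or unadjusted threshold. *Racgap1*, the partner of KIF23 in centralspindlin, was the exception at 86.5, 83.3 and 92.0 FPKM in WT and 96.6, 88.7 and 102 FPKM in MSTN-KO (0.13, -0.13 to 0.39), and its log2 fold change was below 0 after quantile normalization and after scaling to a sum of 1000000. *Anln*, which encodes anillin, a scaffold of the contractile ring, had 29.8, 28.5 and 32.5 FPKM in WT and 27.6, 29.3 and 14.8 FPKM in MSTN-KO. MSTN-KO replicates 1 and 2 were close to WT and replicate 3 was the lowest of all libraries, and the log2 fold change of -0.38 had an interval of -0.83 to 0.06. *Ect2*, which activates RhoA at the cleavage site, was -0.32. *Nusap1* was -0.17, *Tpx2*, the activator of Aurora A, was -0.09, and *Prc1*, which bundles midzone microtubules, was -0.05.

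Chromosome structure genes encode condensin I and the proliferation marker KI-67. *Ncapd2*, a HEAT-repeat subunit of condensin I (ENSMUSG00000038252, chromosome 6 from 125168007 to 125191701), had 32.5, 30.3 and 31.0 FPKM in WT and 39.3, 39.7 and 47.4 FPKM in MSTN-KO. All MSTN-KO libraries were above all WT libraries, and WT values were within 3 FPKM of each other. *Ncapd2* was upregulated with a log2 fold change of 0.41 (SE 0.13, limma adjusted p = 0.0388). The call was lost without WT replicate 1, 2 or 3 (0.0538, 0.156 and 0.0856) and without MSTN-KO replicate 1 or 3 (0.0808 and 0.103), without the variance trend (0.0584), and after scaling to a sum of 1000000 (log2 fold change 0.14, adjusted p = 0.307). Its exons share 237 bases with the small RNA gene *Scarna10* on the same strand.

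The other condensin genes did not pass. *Ncaph*, also of condensin I, was 0.15, and *Ncapg* was -0.35. The core ATPases shared by both condensins were lower in mean, *Smc2* at -0.49 and *Smc4* at -0.36. *Smc2* had 9.79, 7.45 and 9.36 FPKM in WT and 6.95, 9.09 and 3.27 FPKM in MSTN-KO, with replicate 3 far below the rest and replicate 2 among the WT values. The ratio of *Smc4* to *Smc2* differed by 0.17 on the log2 scale (two-sided exact permutation test, p = 0.5). All 6 ratios tested had adjusted p-values of 0.9 or more.

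*Mki67*, which encodes KI-67, the surface coat of mitotic chromosomes and the usual label of cycling cells, had 8.45, 9.13 and 9.21 FPKM in WT and 10.001, 11.0 and 5.33 FPKM in MSTN-KO. MSTN-KO replicates 1 and 2 were above all WT libraries and replicate 3 was below them. The log2 fold change was -0.07 (-0.53 to 0.38), and without a single library it ran from -0.25 to 0.21. *Mybl2*, the gene of B-MYB and the transcription factor of the set that was measured, had 17.0, 13.9 and 17.6 FPKM in WT and 16.6, 14.8 and 17.8 FPKM in MSTN-KO (0.02, -0.29 to 0.33).

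The direction of a gene went with the base composition of its transcript. Over the 55 genes the Spearman rho of the log2 fold change with the GC content of the longest transcript was 0.77, against 0.298 over 10784 tested genes. All points share the same 6 libraries, so this is a description with no test. Of the 27 genes under the median GC content of 46.3%, 4 were higher and 23 lower in MSTN-KO with a median log2 fold change of -0.27. Of the 28 at or above it, 22 were higher and 6 lower with a median of 0.15. Base composition also differed between role groups. The genes around the anaphase-promoting complex had a median GC content of 55.6%, and the group of PLK1, the Aurora kinases and the passenger complex 52.0%. It was 42.9% for kinetochore genes, 43.0% for checkpoint genes and 44.5% for kinesins. The entry genes did not follow this order, with a median GC content of 47.8% and a median log2 fold change of -0.10. The part of base composition in the differences between role groups was not tested. With transcript length rho was -0.34.

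**Figure D4:**
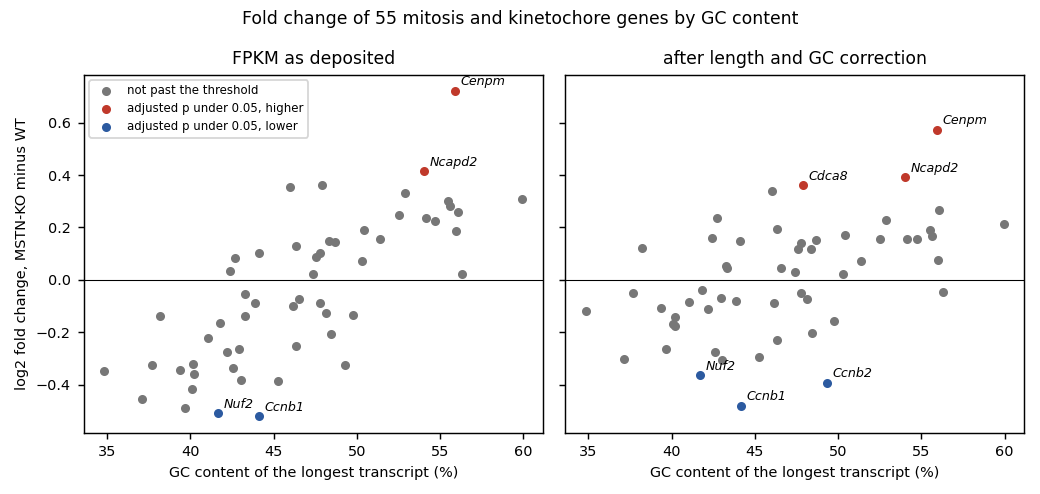
Log2 fold change (MSTN-KO minus WT) of the 55 genes against the GC content of the longest transcript in percent, for FPKM as deposited (left) and after a correction of each library for transcript length and GC content (right). Each point is 1 gene. The deposited values rise with GC content (rho 0.77), and the slope is shallower after the correction (rho 0.54).

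The pattern also appeared within the MSTN-KO group, where replicate 3 leaned toward genes of high GC content. This library was the lowest of all 6 libraries for 21 of the 55 genes and the highest for 21. Against MSTN-KO replicates 1 and 2 its median difference was -0.44 on the log2 scale for the 27 genes of lower GC content and 0.24 for the 28 of higher GC content. MSTN-KO replicate 2 leaned the other way, with rho of -0.69 between GC content and its deviation from its own group, against 0.69 for replicate 3. Over all genes these values were -0.48 and 0.51. Deviations within a group sum to 0 by construction, so a lean in 1 library comes with an opposite lean elsewhere in its group. WT libraries leaned too, with rho of -0.44 for WT replicate 3, 0.36 for WT replicate 1 and -0.057 for WT replicate 2 (-0.47, 0.46 and -0.0027 over all genes). Without MSTN-KO replicate 3, rho of the log2 fold change with GC content was 0.50 over the 55 genes and 0.156 over all. The part of base composition in single differences was not tested beyond the correction that follows.

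Each library was then corrected for transcript length and GC content by a smooth over all genes. The rho with GC content became 0.065 over all genes and 0.54 over the 55. In the corrected values 6 of the 55 genes (10.9%) passed, against 22.7% of all tested genes. *Ccnb1* (-0.48, limma adjusted p = 0.00437), *Ccnb2* (-0.39, 0.0167) and *Nuf2* (-0.36, 0.0347) were lower. *Cenpm* (0.57, limma adjusted p = 0.00152), *Ncapd2* (0.39, 0.0159) and *Cdca8* (0.36, 0.0467) were higher. The median over the 55 genes was 0.03, with 29 higher and 26 lower, and 5 genes changed direction. When 1 library was left out of the corrected fit, *Ccnb1* and *Cenpm* passed in 6 of 6 fits. *Ccnb2* was lost without WT replicate 2 or MSTN-KO replicate 1 (limma adjusted p up to 0.0592), and *Ncapd2* without WT replicate 2 or MSTN-KO replicate 3 (up to 0.0627). *Nuf2* passed in 2 of 6, without WT replicate 1 or MSTN-KO replicate 1 (otherwise up to 0.12), and *Cdca8* in 1 of 6, without MSTN-KO replicate 2 (otherwise up to 0.160).

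**Figure D5:**
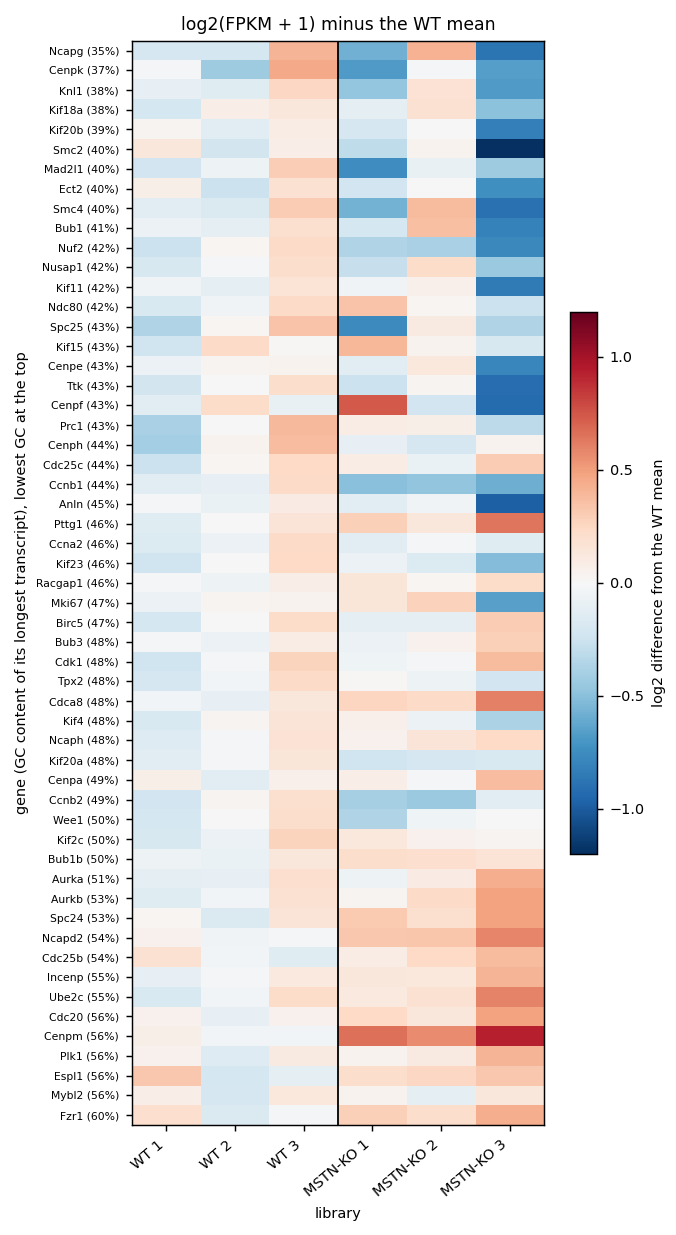
Difference of each library from the WT mean on the scale log2(FPKM + 1), for the 55 genes in rows from low to high GC content and the 6 libraries in columns. Blue is lower and red higher than the WT mean. The column of MSTN-KO replicate 3 goes from blue at the top to red at the bottom.

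WT replicate 3 stood apart among the WT libraries. Its deviation from its own group also fell with GC content (rho -0.44). It was above the mean of its own group for 49 of the 55 genes, and for 45 it was the highest WT library. The median difference of the 55 genes from the WT mean was 0.17 in this library and -0.13 and -0.04 in WT replicates 1 and 2. Muscle differentiation genes had a median difference of -0.99 in WT replicate 3 and 0.26 and 0.50 in the others. So the WT library with the highest mitotic values had the lowest muscle gene values of its group, and the part of either in the other was not tested. Without WT replicate 3 the median log2 fold change of the 55 genes was 0.08 in place of -0.07 and 1 gene passed.

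Markers of the cell state were read beside these values. Myoblast markers were present, with 6 of the 8 measured at 1 FPKM or more in all libraries and a summed level of 838 to 1151 FPKM in WT and 516 to 622 FPKM in MSTN-KO. Most of that sum was *Des*, at 576 to 807 FPKM in WT and 325 to 409 FPKM in MSTN-KO. The satellite cell gene *Pax7* was upregulated from low levels (0.64, limma adjusted p = 0.0415), and the early determination factor *Myf5* differed by 0.08 (adjusted p = 0.784). Markers of myocytes and myotubes summed to 193 to 710 FPKM in WT and 28.5 to 48.4 FPKM in MSTN-KO. Of 22 tested muscle differentiation genes, 21 were downregulated, with a median log2 fold change of -2.40, led by *Mylpf* (-4.02), *Tnni1* (-3.76) and *Myl1* (-3.63). Macrophage markers summed to 1.19 to 1.56 FPKM in WT and 0.818 to 2.45 in MSTN-KO, and endothelial markers to at most 0.167 FPKM, with none at 0 in all libraries. Fibroblast markers summed to 182 to 251 FPKM in WT and 242 to 250.5 in MSTN-KO. Adipocyte markers summed to 2.06 to 2.92 FPKM in WT and 13.2 to 25.3 FPKM in MSTN-KO, mostly from *Lpl* (1.91 to 2.59 and 11.5 to 24.2 FPKM). The part of these differences in cell state in the mitotic values was not tested.

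The other genes of the mitotic pathway, 97 tested genes of the remaining kinetochore, cohesin, anaphase-promoting complex, centrosome and spindle proteins, gave a like picture. In this list 1 gene was upregulated and 2 were downregulated (3.09%, against 17.7% of all tested genes), the median log2 fold change was -0.10 (corrected, -0.05), and 38 were higher and 59 lower in mean. *Anapc13*, a small subunit of the anaphase-promoting complex, was upregulated, at 57.9, 58.9 and 60.7 FPKM in WT and 99.5, 68.8 and 94.3 FPKM in MSTN-KO (0.54, SE 0.15, limma adjusted p = 0.0220). *Pbk*, a mitotic kinase, was downregulated, at 29.2, 29.7 and 38.7 FPKM in WT and 16.6, 23.4 and 18.6 FPKM in MSTN-KO (-0.71, SE 0.16, limma adjusted p = 0.00841). *Cenps*, of the histone-fold part of the inner kinetochore, was downregulated by -0.42 (limma adjusted p = 0.0382).

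S phase genes were compared as the nearest part of the cell cycle. Of 38, 3 were upregulated and 4 downregulated (18.4%, near the 17.7% of all tested genes), and the median log2 fold change was 0.07. Of the MCM helicase subunits, *Mcm7* (0.50) and *Mcm5* (0.47) were upregulated and *Mcm4* was downregulated (-0.92, SE 0.14, limma adjusted p = 0.000934). *Lig1*, the ligase of lagging strands, was upregulated (0.46), and *Rfc4* (-0.89), a clamp loader subunit, *Gmnn* (-0.77), the inhibitor of origin licensing, and *Cdc45* (-0.74), part of the active helicase, were downregulated. Whether the shares called in the S phase and mitotic lists differ was not tested.

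Among 26 CDK inhibitors and genes of the RB, E2F and DREAM system, the system that reads the CHR and E2F letters, 1 was upregulated and 4 were downregulated (19.2%, near the 17.7% of all tested genes). *Cdkn1a*, which encodes p21, an inhibitor of CDKs induced as myoblasts leave the cycle, had 279, 232 and 195 FPKM in WT and 124, 131 and 154 FPKM in MSTN-KO (-0.77, SE 0.15, limma adjusted p = 0.00364). *Rb1*, the retinoblastoma protein gene, had 4.84, 5.12 and 4.60 FPKM in WT and 2.15, 2.96 and 1.73 FPKM in MSTN-KO (-0.85, limma adjusted p = 0.00453). *Cdkn1c*, the gene of p57, was downregulated by -0.85 and *E2f2* by -0.55, and *E2f4*, the E2F of the DREAM complex, was upregulated by 0.41. The median of the list was -0.16 (corrected, -0.10).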

How the data were processed

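RNA-seq of 3 WT and 3 MSTN-KO libraries was read from the FPKM values that the authors deposited, 1 value per gene and library. The authors sequenced on an Illumina HiSeq system. Per the labels, the submitters' processing notes name Bowtie 0.12.2 and the build mm8 without their roles, and the counter, annotation and strand setting are not given in the sources used here. Samples were grouped by title and genotype, since the strain label reads C11 for WT too. FPKM divides by the fragments of the library, so abundant genes lower the values of all others.

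GENCODE M21 gave symbols, positions, transcript lengths and GC content (14445 of 14548 genes, 99.3%), and promoters from RefSeq (GRCm38.p6). For the 10837 genes that reached 1 FPKM in any library, limma 3.58.1 (R 4.3.3) was run on log2(FPKM + 1), with the group as coefficient and eBayes with a trend. Calls used the Benjamini-Hochberg adjusted p at 0.05 over all genes, and DEGs an unadjusted p under 0.05 with a log2 fold change above 1 or below -1. Ratios were compared by two-sided exact permutation tests over 6 libraries. The correction for length and GC content subtracted a smooth (mgcv 1.9.3) of each library's deviation. In data simulated for this comparison on 10837 genes, 200 of them changed by 1 on the log2 scale, 88% were recovered and 7 unchanged genes were called. The changed genes were drawn from those of higher expression, and the noise was independent, with no lean on GC content. The largest change among the 55 genes was 0.72. So the simulation does not give the recovery of changes of their size, or the false calls under a GC lean.

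Every gene of the list is named by role, with each library's values for those past the threshold, and from the further lists the 3 largest rises and falls past it. *Cdc45* and *E2f2*, each the fourth fall of its list, were added after their values were seen. The rule for the genes uses names only, but the genes and lists were chosen with earlier results of these data known. Alternatives were a pseudocount of 0.1, other filters, no trend, 3 scalings, the correction, the replicate block and leaving out each library. Leaving out libraries together with the correction, the alternatives of the CDK inhibitor list and of the ratios, the overlap of annotated exons and the additional per-library values were added after the data had been seen. Python 3.11.15 with pandas 2.3.3 and scipy 1.17.1 was used for the rest.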

Additional observations from a re-analysis of the deposited data

How the results depend on the processing

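No called mitotic gene changed direction under any alternative, and the number of DEGs among the 55 genes stayed at 0. The number past an adjusted p of 0.05 was 4 in the reported fit, 2 without the variance trend and 1 to 9 when a library was left out (2 to 7 with the correction for length and GC content). Of all tested genes, 17.7% passed in the reported fit and 16.7% without the variance trend. With a library left out, 9.53% to 22.5% of all tested genes passed (13.2% to 22.3% with the correction). *Cenpm* passed in every fit. Leaving out MSTN-KO replicate 2 gave the 9, adding *Mad2l1*, *Pttg1*, *Smc2*, *Smc4* and *Ncapg*, and 22.5% of all tested genes passed in that fit. Omitting WT replicate 3, MSTN-KO replicate 1 or MSTN-KO replicate 3 left 1, where 13.0%, 11.2% and 12.1% of all tested genes passed. The median log2 fold change of the 55 genes was -0.33 after scaling to a sum of 1000000, where all genes had a median of -0.26 and the 55 were 7 higher and 48 lower, with 1 call higher and 5 lower against 2 and 2. Over all tested genes that scaling gave 350 calls higher and 2367 lower, against 952 and 971 in the reported fit. Leaving out a library moved the median of the 55 genes between -0.18 and 0.084 (between -0.055 and 0.085 with the correction). Among the genes that did not pass, 0 to 19 changed sign under a setting.

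After scaling to a sum of 1000000, the 97 further mitosis genes had 19 calls and a median of -0.36, and the S phase genes a median of -0.21. The CDK inhibitor and DREAM list of 26 genes had 9 calls and a median of -0.42. Under this scaling 25.1% of all tested genes passed, with a median of -0.26. Calls among the further mitosis genes were 5 after the correction and 7 with the replicate block added to it, where 22.7% and 19.6% of all tested genes passed. With a pseudocount of 0.1 the median of the muscle genes was -3.11. With a library left out, calls ran from 1 to 16 for further mitosis genes (2 to 10 with the correction), from 4 to 10 for S phase genes (6 to 11) and from 3 to 6 for the CDK inhibitor list (3 to 6). In the same fits 9.53% to 22.5% of all tested genes passed (13.2% to 22.3% with the correction). The medians ran from -0.15 to -0.026 for further mitosis genes (-0.075 to 0.010 with the correction) and from -0.24 to -0.081 for the CDK inhibitor list, which with the correction was -0.071, -0.087 and -0.057 without WT replicates 1, 2 and 3 and -0.048 without MSTN-KO replicate 1. With the correction, *Mad2l1* was 0.027 without MSTN-KO replicate 1, and *Ncapg* was 0.012 without WT replicate 3 and 0.023 without MSTN-KO replicate 3. The log2 ratios ran from -0.11 to 0.010 for *Cdc20* to *Fzr1*, from -0.16 to 0.22 for *Pttg1* to *Espl1* and from -0.32 to 0.49 for *Cenpe* to *Cenpf*. The causes were not tested, beyond what each setting changes by its construction.

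Replicate numbers did not pair the samples. Deviations of same-numbered libraries correlated at -0.015, -0.128 and -0.142. Adding the replicate block to the fit called 3 of the 55 genes (*Ccnb1*, *Cenpm* and *Nuf2*), and 6 with the correction as well. The block alone left *Ncapd2* at an adjusted p of 0.0605, and with the correction *Nuf2* was at 0.0744 (limma). It called 1940 of all genes, against 1923. FPKM hold no counts, so counting error could not be given. Standard errors were largest for *Cenpf* (0.31), *Ncapg* (0.28) and *Smc4* (0.26).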

Other observations

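Exons of 16 of the 55 genes overlap an exon of another gene in the annotation, on the opposite strand in 15 and on the same strand in 1 (*Ncapd2*). The longest overlaps were those of *Kif20a* with *Cdc23* (1271 bases), *Ncapg* with *Lcorl* (944 bases), *Prc1* with *Rccd1* (911 bases) and *Kif4* with *Pdzd11* (832 bases). *Ccnb1*, *Ccnb2* and *Kif4* each have a gene annotated as their processed pseudogene. Because the counting is not stated to use strand or to treat shared reads in a given way, values of these genes can hold reads of the partner, and none of the partners was tested here as a source.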
